A study of Mus musculus with 4 samples.

Results

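The bacteria described here are those of the families Oscillospiraceae, Ruminococcaceae, Acutalibacteraceae and Butyricicoccaceae in mouse stool. They were taken from a table of 488 bacterial taxa by the start of the family name, which gave 65 taxa in 39 of the table's 316 genera. The names fall into 5 of 107 family fields, because Oscillospiraceae is split into Oscillospiraceae_88309 (22 taxa, 12 genera) and Oscillospiraceae_45227 (2 taxa, 1 genus). Ruminococcaceae holds 23 taxa in 15 genera, Acutalibacteraceae 14 in 8, and Butyricicoccaceae 4 in 3. Suffixes of names are printed as the table gives them.

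Stool of C57BL/6J mice aged 8 to 12 weeks was profiled by sequencing a stretch (V4) of the 16S rRNA gene of bacteria, before treatment (day 0) and on day 4. Mice received ampicillin, metronidazole, neomycin, vancomycin, a mix of all 4, or phosphate-buffered saline (PBS) alone, orally, intraperitoneally or intravenously. A dose was 2.5 mg of antibiotic in 100 µl PBS, given 2 times daily over 3 days, with a last dose on day 4 and euthanasia 4 hours after the last dose. Control mice got 100 µl PBS by the same 3 routes, so every mouse was handled and dosed. The study concerned the responses of host and microbiome to antibiotics. The day 4 stool of each antibiotic and route is compared here with PBS of the same route, in 15 comparisons. The groups held 5 oral, 5 intraperitoneal and 6 intravenous PBS samples. In the same order of routes there were 5, 2 and 4 ampicillin samples, 6, 6 and 6 of metronidazole, 4, 6 and 4 of neomycin, 6, 5 and 6 of vancomycin and 4, 3 and 6 of the mix. Sample names mark single mice, except that 2 oral mix samples share replicate number 2 (named 2 and 2b below). In addition, intraperitoneal vancomycin sample 1 and intravenous ampicillin sample 3 are each a mean of 2 near-identical libraries. Those libraries carry different mouse numbers and were counted as 1 sample each.

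These bacteria are strict anaerobes of the class Clostridia that live by fermentation in the large intestine. Several of their cultured relatives, among them Butyricicoccus, Lawsonibacter, Intestinimonas, Faecalibacterium and Dysosmobacter, make butyrate, a short-chain fatty acid that colon cells burn as fuel, and Ruminococcus is known for breaking down plant fibre. Ampicillin and vancomycin block the building of the bacterial cell wall, and vancomycin is poorly absorbed from the gut. Neomycin acts on the ribosome and is known for weak action on strict anaerobes, and metronidazole is a drug that anaerobes activate inside the cell.

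Depth ran from 30 to 153407 reads in the 91 day 4 libraries (median 23566), of which 4 had fewer than 1000. Day 0 libraries were shallower (median 7289, 24 of 107 under 1000), and only the 83 with at least 1000 reads were used for day 0 levels. Run SB1 gave 12 libraries, all of day 4, and run ok122 gave 186; both runs are present in PBS and vancomycin by vein, oral ampicillin, oral mix, and ampicillin and mix into the peritoneum. A list of 14 taxa known from reagents, skin and food took 89.0% and 96.6% of the reads in oral ampicillin samples 3 and 5, and 93.4%, 96.0% and 68.3% in oral mix samples 1, 2 and 2b. It took at most 0.0304% in PBS samples. Shares of reads add up to 100%, so fewer cells of these families and more cells of other bacteria cannot be told apart in any value below.

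Before treatment the 4 families together made up 3.65% ± 3.12 of reads (SD, n = 83 libraries), from 0.256% to 13.6%, and no library was without them. Oscillospiraceae_88309 carried 85.4% of that sum with a mean of 3.12% ± 2.82. Ruminococcaceae came to 0.345% ± 0.299, Acutalibacteraceae to 0.118% ± 0.108 and Butyricicoccaceae to 0.0701% ± 0.105. The leading genus was Dysosmobacter, a butyrate producer, at 1.07% ± 1.03 and present in 77 of the 83 libraries. Oscillospiraceae_88309 with no genus name followed at 0.992% ± 0.999. Lawsonibacter came to 0.637% ± 0.611, Enterenecus to 0.357% ± 0.451, Anaerotruncus to 0.117% ± 0.146 and Ruminiclostridium_E to 0.111% ± 0.123. Named fermenters seen less often were Acutalibacter (39 libraries), Butyricicoccus_A_77030 (34), Ruminococcus_C_59129 (32) and Ruminococcus_C_58660 (20). Intestinimonas was seen in 2 libraries and Faecalibacterium in none.

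In the 16 PBS samples of day 4 the sum was 3.20% ± 2.14, from 1.06% to 8.73%. By mouth the 5 samples held 1.47%, 1.97%, 1.5%, 6.95% and 4.72%. Into the peritoneum they held 1.83%, 4.17%, 8.73%, 2.34% and 2.28%, and by vein the 6 ran from 1.06% through a median of 2.66% to 3.83%. The 3 PBS groups overlap, and no member genus or family was called different between routes of PBS by limma (unadjusted p under 0.05 for 2, 2 and 1 of 14 genera in the 3 contrasts and for 0 families). Dysosmobacter made up between 14.2% and 50.3% of the sum in PBS samples and was its leading genus in 11 of 16. Before treatment, 0 of 15 member genera and 0 of 4 families differed between the later antibiotic groups and PBS at an adjusted p under 0.05 in any of the 15 comparisons (limma; 13 genus tests and 0 family tests had an unadjusted p under 0.05).

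**Figure D1:**
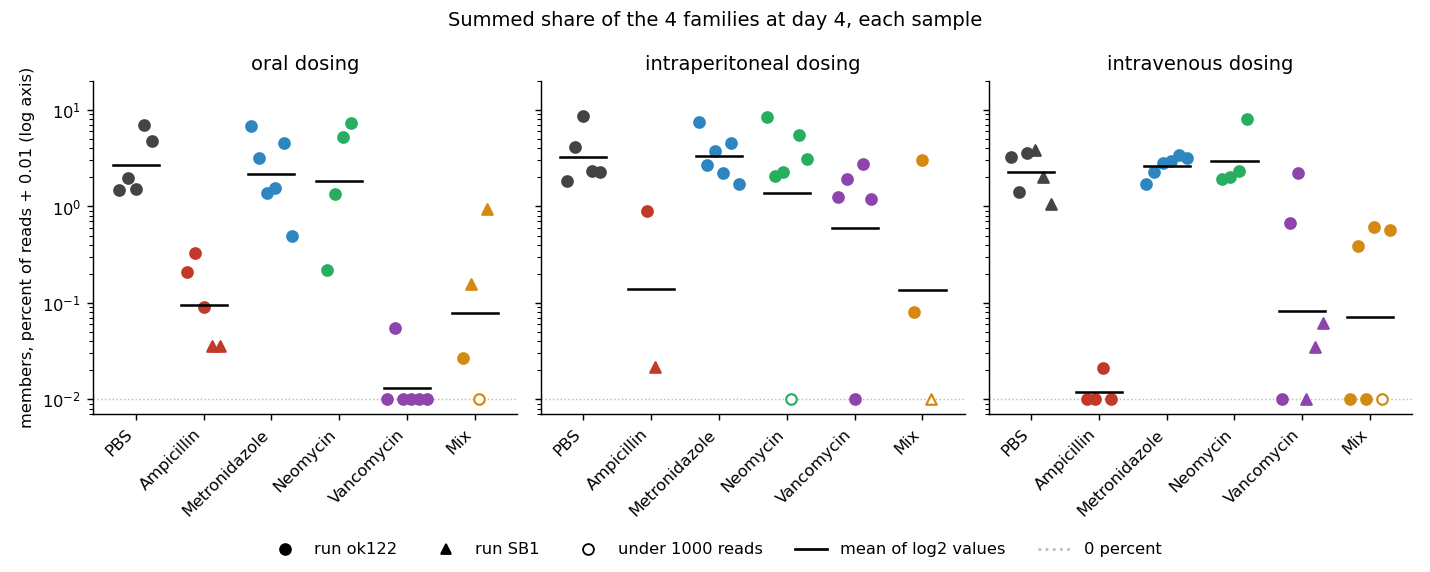
Summed share of the 4 families in each day 4 sample, as percent of reads plus 0.01 on a log axis, by antibiotic within each route; bars are means of log2 values and the dotted line marks 0 percent. PBS samples lie between 1.06% and 8.73% and metronidazole samples between 0.489% and 7.43%, while no oral vancomycin or intravenous ampicillin sample exceeds 0.0445%.

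For the tests, limma was fitted to log2(percent + 0.01) of the 89 day 4 samples of all groups at once, over the 95 genera and 39 families present in at least 20% of them; 14 member genera and 4 member families passed that filter and 25 genera did not. A call is an adjusted p under 0.05 (Benjamini-Hochberg within a comparison). Every call among the members was a lower share: 82 of 210 genus tests and 26 of 60 family tests, with 0 higher. Over all 95 genera in the 15 comparisons 355 tests were lower and 48 higher. Of all 39 families between 0% (such as oral metronidazole) and 46.2% (oral vancomycin) were lower in a comparison. Where all samples of a group are at 0, a log2 change depends on the added 0.01 and does not bound the true change. The scale also matters. When values were instead taken relative to the mean of all tested taxa in a sample (centred log-ratio), the median genus moved by between -0.38 and 2.21 on the log2 scale, and 27 member genus tests were lower and 6 higher, beside 126 lower and 117 higher over all genera. At family level 23 member tests were lower and 0 higher on that scale. No count over all families is given for it. In all other settings named below, counts of members stand without a count over all taxa. Such counts do not show whether the members or the whole table lost calls.

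With oral vancomycin nearly no read of the families was found. Of 6 samples, 5 held no read of any member and sample 2 held 0.0445%, all of it Dysosmobacter, against 1.47% to 6.95% in oral PBS. The groups do not overlap. Depth allows up to 0.0147% to 0.261% in the 5 samples at 0 (3 reads of the library total; such limits cover counting error only). In 183 of the 198 libraries the lowest value listed is 2 reads, so taxa with 1 read may be listed at 0 and these limits may be too low. Oscillospiraceae_88309 changed by -7.17 on the log2 scale (SE 1.30, limma adjusted p = 2.12e-06), Ruminococcaceae by -5.13 (SE 1.03, 1.2e-05) and Acutalibacteraceae by -4.57 (SE 0.890, 7.27e-06), each listed below all PBS samples in 6 of 6. Sample 4, with 1151 reads, has the limit of 0.261%. That lies above the lowest oral PBS values of Ruminococcaceae (0.161%) and Acutalibacteraceae (0.142%). Butyricicoccaceae, already at 0 in 2 of 5 PBS samples, changed by -1.75 (SE 0.595, 0.00881). That call rests on oral PBS sample 4, without which the adjusted p is 0.0891. All 4 families were called against 46.2% of all 39 families. At genus level 12 of 14 were lower against 58.9% of all 95 genera, with a median change of -2.63 beside -1.96 over all genera. On the centred scale 4 of 14 members were lower, where 23 of 95 genera were lower and 22 higher. The widest falls were those of unclassified Oscillospiraceae_88309 (-5.81 ± 1.09 SE, limma adjusted p = 4.93e-06), Dysosmobacter (-5.68 ± 1.22, 4.19e-05) and Lawsonibacter (-5.17 ± 0.999, 8.41e-06). Acutalibacter and Butyricicoccus_A_77030 were also called lower, but on the centred scale both were higher without a call (0.55 and 0.59). Both of these calls and that of Evtepia (-2.58) are lost without oral PBS sample 4 (adjusted p up to 0.108).

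The class Clostridia as a whole was still abundant with oral vancomycin. It made up 24.3% to 46.2% of reads in the 6 samples (median 32.6%), where oral PBS samples held 6.48%, 6.35%, 4.18%, 25.9% and 24.4%. The 4 families were 0% to 0.172% of those Clostridia reads, against 27.2% ± 6.57 in oral PBS (SD, n = 5). Lachnospiraceae, the other large clostridial family of the mouse gut, was at most 0.140% in these samples. Of the 11 clostridial families tested outside the members, 5 were lower and 2 higher.

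Oral ampicillin left low amounts, in samples 3, 4 and 5 at or near the limit of 3 reads. The 5 samples held 0.20%, 0.322%, 0.0802%, 0.0255% and 0.0257%, all below the lowest PBS sample, with a mean of 0.131% ± 0.128 (SD). The last pair came from run SB1, which holds no oral PBS, and the first 3 from run ok122. Sample 4 held 3 member reads, all of them Gemmiger_A_73129, which no PBS sample held. The limits of 3 reads in samples 3 and 5 are 0.0481% and 0.0128%. All 4 families fell, where 43.6% of all families did. Oscillospiraceae_88309 changed by -5.23 (SE 1.36, limma adjusted p = 0.000998), Ruminococcaceae by -3.53 (SE 1.08, 0.00437) and Acutalibacteraceae by -3.36 (SE 0.930, 0.00182). Butyricicoccaceae was at 0 in all 5 samples (-1.75, SE 0.621, 0.0141), a call lost without oral PBS sample 4 (0.119). Of the 14 genera 11 were lower, beside 49.5% of all genera, with a median of -2.57 against -1.86 over all. Unclassified Oscillospiraceae_88309 (-5.33), Lawsonibacter (-4.67) and Dysosmobacter (-4.47) led. Butyricicoccus_A_77030 was called lower too (-1.62) but lay at 0.23 on the centred scale; without oral PBS sample 4 it and Evtepia (-2.58) were not called (adjusted p 0.135 and 0.0720). Samples 3 and 5 were mostly reads of the reagent, skin and food list; with that list left out the difference of the sum from PBS went from -4.83 to -3.34 on the log2 scale, 10 of 14 genera were lower and all 4 families were still called. In run ok122 alone 8 genera and 3 families were lower, and Acutalibacteraceae was not called (-2.56, adjusted p 0.0539). For both of these settings no count over all genera or families is given. In samples 1, 2 and 4 Clostridia made up 88.6%, 92.2% and 94.2% of reads, while the 4 families were 2.50% of Clostridia reads at most in any of the 5 samples.

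The oral mix gave 0.0167%, 0.146%, 0% and 0.938% in samples 1, 2, 2b and 3, all under the lowest oral PBS sample (1.47%). Sample 2b had 556 reads, which allow up to 0.540%. Samples 2 and 3 came from run SB1. Ruminococcaceae changed by -4.43 (SE 1.15, limma adjusted p = 0.00143), Acutalibacteraceae by -3.74 (SE 0.986, 0.00159) and Oscillospiraceae_88309 by -4.66 (SE 1.44, 0.00743), where 28.2% of all families were lower. Butyricicoccaceae was not called (-1.31, 0.115). Without sample 2b the call for Oscillospiraceae_88309 was lost (-3.69, 0.0693), and with the reagent, skin and food list left out it was lost too (-2.70, 0.176), so that 2 families were called. At genus level 10 of 14 were lower against 35.8% of all genera, led by unclassified Oscillospiraceae_88309 (-4.15), Lawsonibacter (-3.89) and Dysosmobacter (-3.82). The count was 5 with the reagent, skin and food list left out, 6 without the library under 1000 reads and 0 on the centred scale, and it ran from 5 to 12 when single samples were left out. Without oral PBS sample 4, or without mix sample 1, 2 or 2b, the call for Dysosmobacter was among those lost (adjusted p up to 0.109).

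By vein, ampicillin gave the lowest values. Samples 1, 2 and 5 held no member read, and sample 3 held 0.0111%, all Dysosmobacter, against 1.06% to 3.83% with intravenous PBS. The samples at 0 allow up to 0.0101% to 0.0829%. Oscillospiraceae_88309 changed by -7.26 (SE 1.38, limma adjusted p = 1.14e-05), Acutalibacteraceae by -4.25 (SE 0.949, 0.000187) and Ruminococcaceae by -3.92 (SE 1.1, 0.00244), where 30.8% of families were lower. Butyricicoccaceae was at 0 in all 4 and in part of PBS and was not called (-0.88, 0.288). Of the 14 genera 8 were lower beside 36.8% of all genera, with a median of -2.02 against -1.65 over all. Dysosmobacter (-6.18 ± 1.30 SE, 0.000159), unclassified Oscillospiraceae_88309 (-5.56 ± 1.16, 0.000159) and Lawsonibacter (-4.52 ± 1.06, 0.000436) led again. Ruminococcus_C_58660 (-1.20) and Limivicinus (-1.63) were called lower but were at 0.47 and 0.03 on the centred scale. The Ruminococcus_C_58660 call is lost in 7 of 10 fits that leave out 1 sample, and that of Anaerotruncus (-2.04, adjusted p = 0.0476) in 8 of 10. Here the rest of the Clostridia was low as well: the class held 0.0332%, 0%, 0.178% and 3.75% of reads, and Lachnospiraceae was at 0 in all 4 samples.

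Intravenous vancomycin was less even. The 6 samples ran from 0% (samples 1 and 4) through a median of 0.0383% to 2.21% (sample 3), and 5 of 6 lay below all PBS samples. Samples 5 and 6 held Dysosmobacter alone, at 0.0248% and 0.0519%. Acutalibacteraceae was at 0 in all 6 (-4.25, SE 0.849, limma adjusted p = 3e-05). Oscillospiraceae_88309 changed by -4.51 (SE 1.24, 0.00259) and Ruminococcaceae by -3.10 (SE 0.987, 0.00816), where 25.6% of families were lower. Butyricicoccaceae was not called (-0.88, 0.287). Of the genera 8 of 14 were lower against 37.9% of all, led by Eubacterium_R (-4.11), unclassified Oscillospiraceae_88309 (-4.03) and Enterenecus (-3.99), while Ruminococcus_C_58660 (-1.20) was at 0.19 on the centred scale. Both runs hold 3 vancomycin and 3 PBS samples by this route. Within run SB1 the sum differed by -6.19 on the log2 scale and within run ok122 by -3.38. In run ok122 alone 2 genera and 1 family were called. The part of the run in the result was not tested.

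The intravenous mix gave 0% in samples 1, 3 and 5 and 0.376%, 0.602% and 0.565% in samples 2, 4 and 6, all below the lowest PBS sample. Sample 5 had 65 reads, which allow up to 4.62%, so its 0 says little. Oscillospiraceae_88309 changed by -4.79 (SE 1.24, limma adjusted p = 0.00136), Acutalibacteraceae by -3.73 (SE 0.849, 0.000638) and Ruminococcaceae by -3.04 (SE 0.987, 0.00997), where 28.2% of families were lower. Butyricicoccaceae was at 0 in all 6 (-0.88, 0.233). Of the genera 7 of 14 were lower against 37.9% of all, led by Dysosmobacter (-4.37), Eubacterium_R (-4.11) and unclassified Oscillospiraceae_88309 (-3.69), and Ruminococcus_C_58660 (-1.20) was at 0.24 on the centred scale. The count was 11 without PBS sample 6, which held no Ruminococcaceae. The members' median, -1.66, lay close to that of all genera, -1.46. Sample 3 combined no member read with 96.8% of reads in the class Clostridia.

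**Figure D2:**
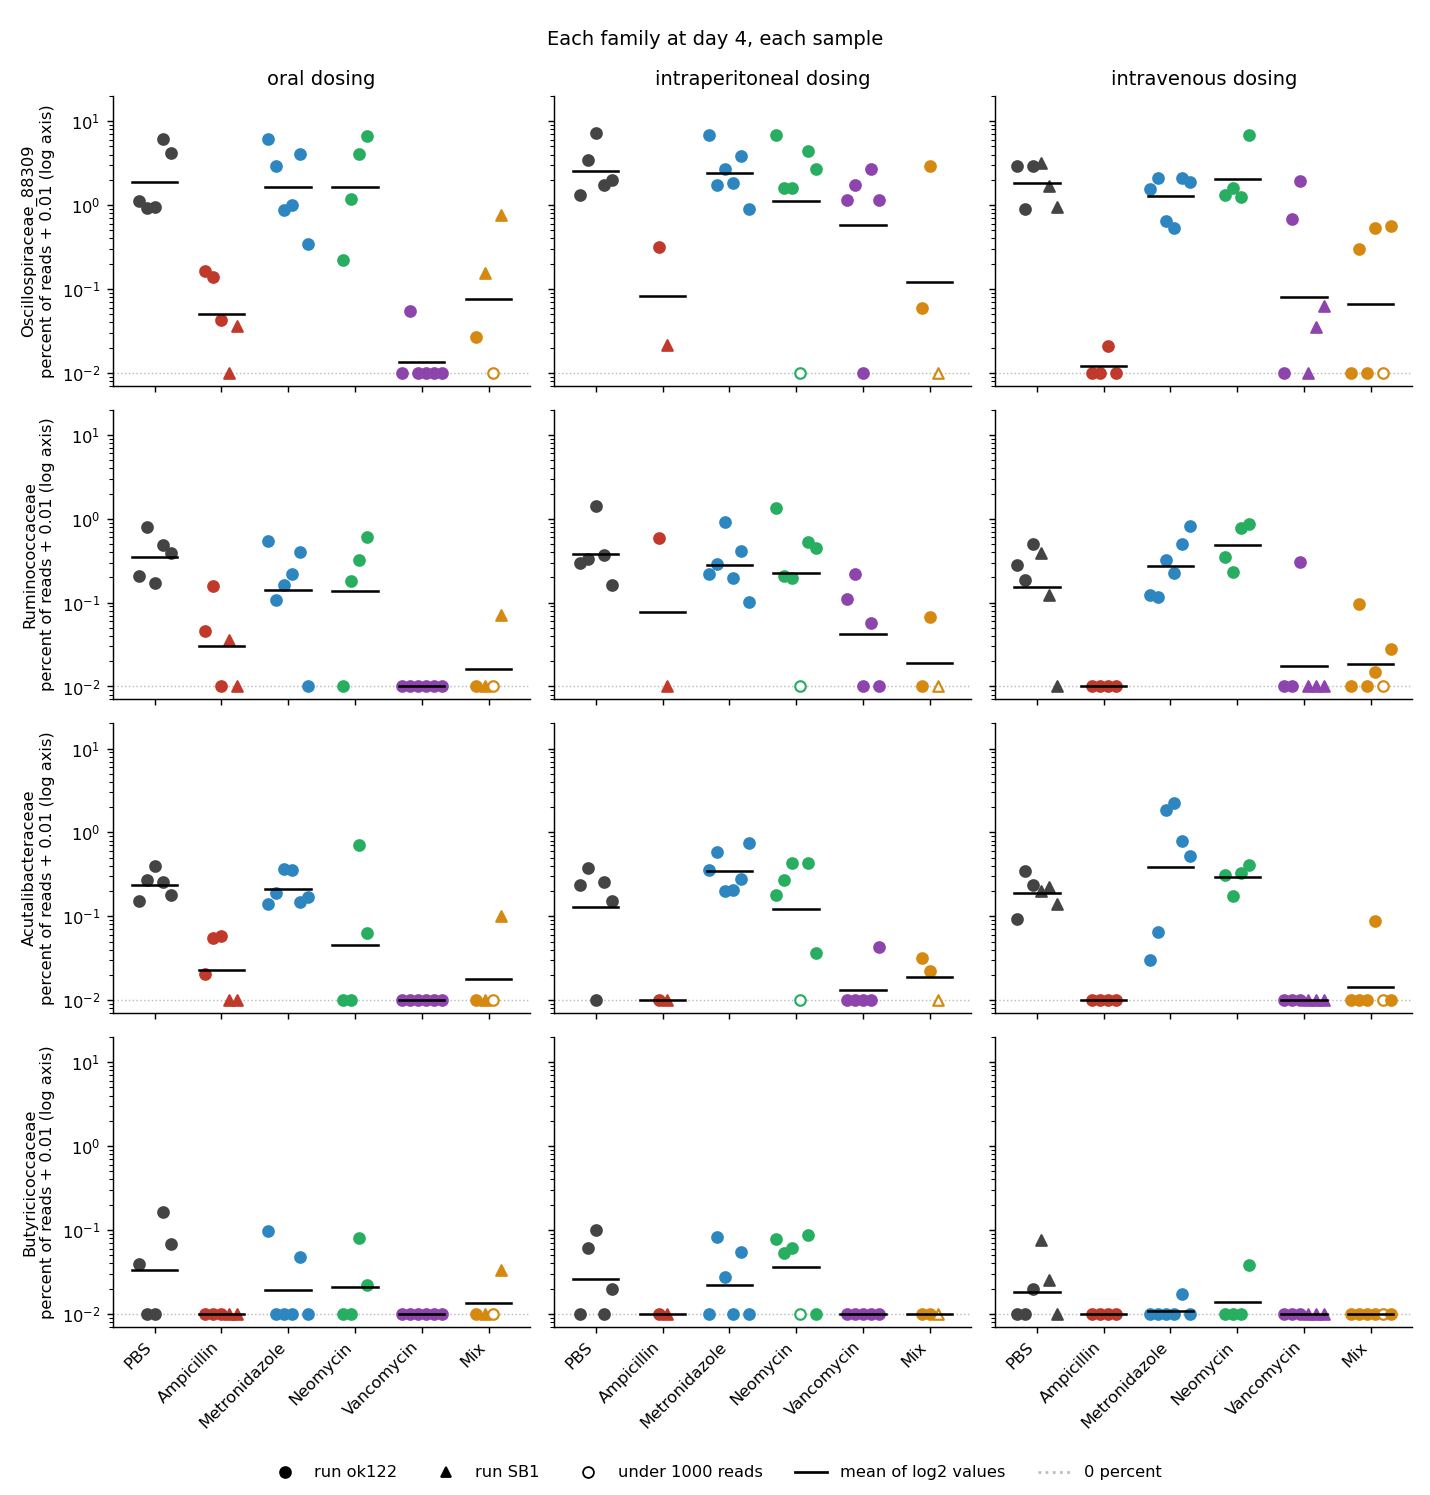
Share of each of the 4 tested families in every day 4 sample, as percent of reads plus 0.01 on a log axis, by route (columns) and antibiotic; bars are means of log2 values. Oscillospiraceae_88309 is above 0 in all 16 PBS samples, whereas Butyricicoccaceae is at 0 in 7 of them.

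With vancomycin into the peritoneum 2 of the 4 families were called. Samples 1, 2, 3, 4 and 6 held 1.25%, 1.94%, 0%, 2.75% and 1.18%, against 1.83% to 8.73% with PBS, and 3 of 5 lay below all PBS samples. Acutalibacteraceae was at 0 in 4 samples and at 0.0327% in sample 6 (-3.26, SE 0.930, limma adjusted p = 0.00949). Ruminococcaceae changed by -3.17 (SE 1.08, 0.0348). Oscillospiraceae_88309 was not called (-2.16, 95% interval -4.87 to 0.54, adjusted p = 0.262), and neither was Butyricicoccaceae (-1.39, 0.0907); 20.5% of all families were lower. The Acutalibacteraceae call is lost without PBS sample 2 (0.0586), and that of Ruminococcaceae without any of 5 single samples (up to 0.108). Of the genera 4 of 14 were lower beside 22.1% of all genera: Eubacterium_R (-3.51), Anaerotruncus (-2.86), Evtepia (-2.42) and Ruminococcus_C_58660 (-1.69). Dysosmobacter was present in 4 of 5 samples (0.338%, 0.395%, 0%, 1.27% and 0.272%). Its change of -2.15 was not called (0.223). Of the 4 genus calls that of Eubacterium_R held with any 1 sample left out (adjusted p at most 0.0182); Evtepia's was lost in 8 of 10 such fits, that of Anaerotruncus without PBS sample 3 and that of Ruminococcus_C_58660 without PBS sample 2. Sample 3, with 31456 reads and none of the members, also held only 0.0286% Lachnospiraceae, against 5.48% to 18.0% in the other 4.

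The last groups into the peritoneum were small. Ampicillin had 2 samples, at 0.885% and 0.0114%, both below all PBS samples and each from a different run. Acutalibacteraceae (-3.68, SE 1.23, limma adjusted p = 0.0129) and Oscillospiraceae_88309 (-4.97, SE 1.79, 0.0193) were called beside 23.1% of all families, Ruminococcaceae (-2.32, 0.157) and Butyricicoccaceae (-1.39, 0.147) were not. Without sample 2 the call for Oscillospiraceae_88309 was lost (-3.02, 0.315), and that for Acutalibacteraceae without either ampicillin sample (adjusted p up to 0.0833). In run ok122 alone, which leaves 1 ampicillin sample, 0 families were called. The Acutalibacteraceae call was also lost with 0.1 added (0.0645), with reads thinned to 1000 a library (0.108), with only the groups compared in the fit (0.106) and as change from day 0 (0.0639), and that for Oscillospiraceae_88309 with 0.001 added (0.0704). Of the genera 9 of 14 were lower beside 43.2% of all, led by unclassified Oscillospiraceae_88309 (-6.06), Lawsonibacter (-5.53) and Enterenecus (-4.55), and Ruminococcus_C_58660 (-1.69) was at 0.17 on the centred scale. With either ampicillin sample left out the count was 3; the sample that is left is then assumed to vary like the other groups. In sample 1 the 0.578% of Ruminococcaceae was Gemmiger_A_73129, which no PBS sample held. The mix had 3 samples at 0.0715%, 3.02% and 0%, the last with 30 reads. Ruminococcaceae (-4.35, SE 1.25, 0.00778) and Oscillospiraceae_88309 (-4.41, SE 1.57, 0.0393) were called beside 17.9% of families, Acutalibacteraceae (-2.75, 0.0594) and Butyricicoccaceae (-1.39, 0.182) were not. Of the genera 8 of 14 were lower beside 29.5% of all, led by unclassified Oscillospiraceae_88309 (-4.25), Dysosmobacter (-4.09) and Lawsonibacter (-3.86). The count of genera was 0 without sample 1 and 0 without the sample of 30 reads, so these calls rest on both. Both family calls are lost in the same way (adjusted p up to 0.421 for Oscillospiraceae_88309 and 0.0795 for Ruminococcaceae), and that of Oscillospiraceae_88309 also without PBS sample 2 or 3.

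**Figure D3:**
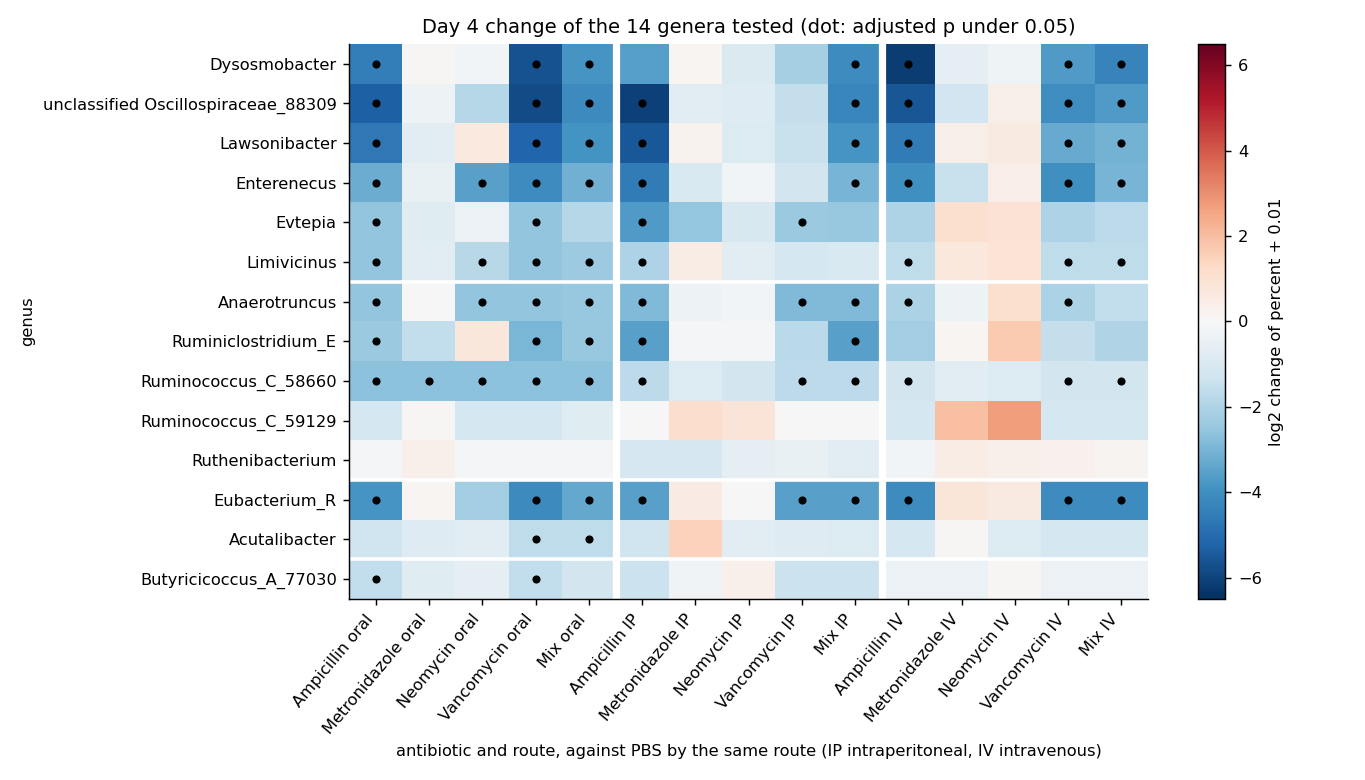
Log2 change of percent plus 0.01 against PBS of the same route for the 14 member genera tested (rows, by family) in the 15 comparisons (columns); a dot marks an adjusted p under 0.05 by limma. The ampicillin, vancomycin and mix columns hold 4 to 12 dots each, where 22.1% to 58.9% of all 95 genera were lower. Those of metronidazole and neomycin hold 0 to 4, where 0% to 16.8% of all genera were lower. Ruminococcus_C_59129 and Ruthenibacterium have none.

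With metronidazole the summed share overlapped PBS by all 3 routes. Oral samples ran from 0.489% through a median of 2.38% to 6.80%, intraperitoneal ones from 1.72% through 3.22% to 7.43%, and intravenous ones from 1.70% through 2.89% to 3.38%. The sum differed from PBS by -0.31, 0.02 and 0.22 on the log2 scale. None of the 4 families was called by limma in any of the 3 comparisons (0 unadjusted p under 0.05), where 0% of families were lower by each route. The intervals are wide: for Oscillospiraceae_88309 the 95% limits were -2.78 to 2.39 by mouth, -2.68 to 2.50 into the peritoneum and -2.99 to 1.95 by vein, which leaves sizeable changes either way undetected. The exception at genus level was Ruminococcus_C_58660, which fell by 2.68 with oral dosing (SE 0.446, limma adjusted p = 3.83e-06). It was at 0 in all 6 samples and between 0.0165% and 0.0930% in the 5 oral PBS samples. Depth allows up to 0.0167% to 0.0473% in samples 2, 3, 4 and 6. The change was the same, -2.68, with each other oral antibiotic and the oral mix, against the same PBS samples. Before treatment the genus was seen in 20 of 83 libraries. It was 1 of 14 member genera and 1 of the 2.11% of all genera lower there. Into the peritoneum 0 genera of the table were lower (4 member genera had an unadjusted p under 0.05), and by vein 2.11% were, none a member (1 member under 0.05). By vein Eubacterium_R, a genus of Acutalibacteraceae, was at 0%, 0.0360%, 1.82%, 2.24%, 0.771% and 0.499% in samples 1 to 6, against 0.326% at most with PBS. Samples 3 to 6 lie above every PBS sample of the route and samples 1 and 2 below, and the change of 0.80 was not called (adjusted p = 0.915).

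Neomycin by injection gave sums within or above the PBS range apart from a library of 70 reads. Into the peritoneum the 6 samples ran from 0% (sample 4, 70 reads, which allow up to 4.29%) through 2.68% to 8.45%, and by vein they held 1.94%, 1.99%, 2.33% and 8.06%. The sum differed from PBS by -1.24 and 0.36 on the log2 scale, and by 0.19 into the peritoneum without the 70-read library. No family was called by limma by either route (0 unadjusted p under 0.05; 0% of families lower), and no member genus (1 with an unadjusted p under 0.05 by each route), where 0% and 1.05% of all genera were lower. By vein Ruminococcus_C_59129 was at 0.0704%, 0.0832%, 0.423% and 0.122% while 4 of 6 PBS samples were at 0. Its change of 2.71 (SE 0.833) was not called (0.0775).

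With oral neomycin 4 member genera fell while the summed share overlapped PBS. The 4 samples held 0.210%, 1.34%, 5.18% and 7.29%, overlapping oral PBS, with a difference of -0.56. No family was called by limma (1 with an unadjusted p under 0.05), where 10.3% of families were lower. Acutalibacteraceae came closest (-2.37, 95% interval -4.34 to -0.40, adjusted p = 0.0897): it was at 0 in samples 1 and 2 and at 0.703% and 0.0527% in samples 3 and 4. Of the genera 4 of 14 were lower against 16.8% of all. The members' median, -0.93, lay close to those of all genera, -1.02, and of the other Clostridia genera, -1.15. On the centred scale 2 of 14 members were lower, where 8 of 95 genera were lower and 11 higher. Enterenecus was at 0%, 0%, 0.0164% and 0.00857%, against 0.0842% to 0.408% with PBS (-3.53, SE 0.986, limma adjusted p = 0.00765). Anaerotruncus was at 0 in all 4 samples and above 0 in all 5 PBS samples (-2.55, SE 0.897, 0.0298). So was Ruminococcus_C_58660 (-2.68, SE 0.494, 4.87e-05). Limivicinus was at 0%, 0%, 0.00822% and 0.0318% (-1.82, SE 0.610, 0.0256), with 1 sample inside the PBS range. Dysosmobacter and Lawsonibacter were not called. Dysosmobacter held 0.00864%, 0.590%, 2.28% and 4.90% (-0.19, 0.936) and Lawsonibacter 0.158%, 0.427%, 1.1% and 1.15% (0.62, 0.708). In sample 4 Dysosmobacter alone was 67.1% of the sum, the highest share among metronidazole and neomycin samples. The calls for Anaerotruncus and Limivicinus are lost when single samples are left out (adjusted p up to 0.105 and 0.0968), and the count of 4 ran from 2 to 5.

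**Figure D4:**
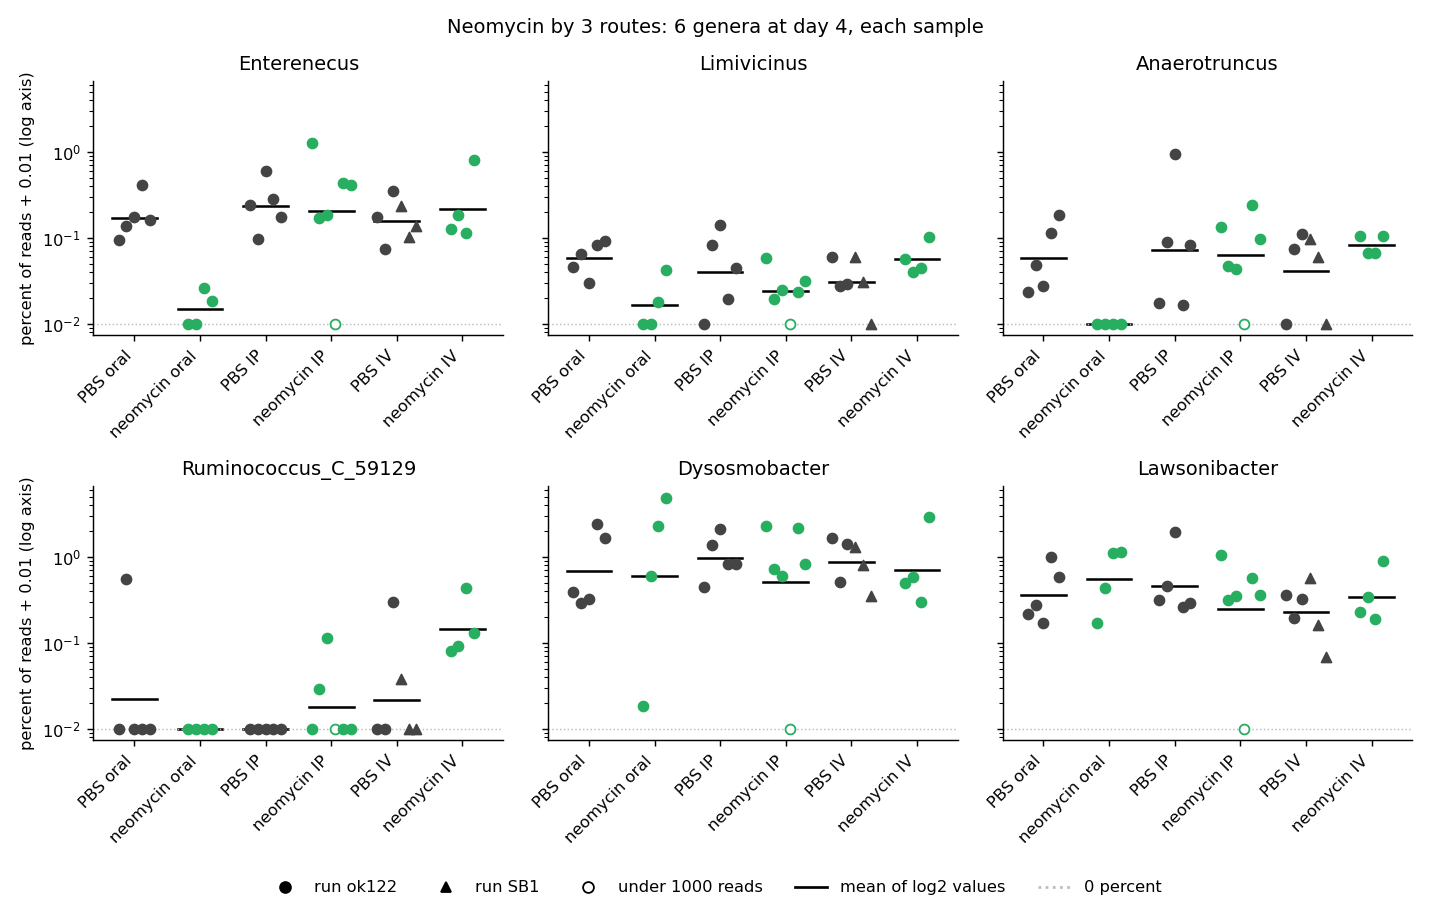
Share of 6 genera in each day 4 sample of PBS and neomycin by 3 routes, as percent of reads plus 0.01 on a log axis; bars are means of log2 values. Enterenecus and Anaerotruncus are at or near 0 with oral neomycin, and Limivicinus is below PBS in 3 of 4 samples with the other (0.0318%) inside the PBS range; all 3 are near PBS with intravenous neomycin, while Dysosmobacter and Lawsonibacter overlap PBS by each route.

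Whether an antibiotic's change differed by route was tested directly, as the difference of the changes from PBS. For neomycin, oral minus intravenous, 4 of 14 member genera differed, where 12.6% of all genera did: Enterenecus (-3.98, SE 1.37, limma adjusted p = 0.0431), Limivicinus (-2.69, SE 0.847, 0.0234), Anaerotruncus (-3.57, SE 1.24, 0.0431) and Ruminococcus_C_59129 (-3.87, SE 1.2, 0.0234). Ruminococcus_C_59129 was not called against PBS by either route. Among oral PBS and oral neomycin samples only PBS sample 2 held it (0.551%). Oral minus intraperitoneal neomycin gave 0 member genus calls (2 with an unadjusted p under 0.05; Enterenecus -3.34, 0.142). For vancomycin, oral minus intraperitoneal, Oscillospiraceae_88309 differed (-5.00, SE 1.88, 0.0359), where 33.3% of all families did. Its genera were not called there, with unclassified Oscillospiraceae_88309 closest (-4.24, 0.0599). No other contrast between routes, of 15 at each level, gave a member call. Of these 5 calls 4 were lost on the centred scale, and 4 each with the change from day 0 as the value, with 0.1 as the added percent, without the filter on rare taxa and in run ok122 alone. The differences between routes were not refitted with single samples left out.

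Dysosmobacter was often the genus found where few member reads were left. Among 56 antibiotic samples with any member read it led the sum in 39, and in 6 samples it was the only member genus listed. Those 6 were oral vancomycin 2, oral mix 1, peritoneal ampicillin 2, intravenous ampicillin 3 and intravenous vancomycin 5 and 6. In that order they held 5, 2 and 4 member reads, 0 and 3 in the 2 libraries of intravenous ampicillin 3, and 38 and 12. Among the 10 antibiotic samples with some members but less than 0.1%, it led in 7. Dysosmobacter was also the most abundant member genus before treatment. The median of its share of the sum was 34.4% over all antibiotic samples with members and 34% in PBS. Of the 56 antibiotic samples 18 were of metronidazole and 13 of neomycin, with medians of 29.3% and 28.9%. It led in 13 and 10 of these. In the 10 samples under 0.1% the median was 100%. Dysosmobacter was called lower in 7 of the 15 comparisons, Ruminococcus_C_58660 in 11, and Anaerotruncus, Enterenecus and Eubacterium_R in 9. These counts do not rank the falls, which reached -6.18 for Dysosmobacter and -2.68 for Ruminococcus_C_58660. All oral calls of Ruminococcus_C_58660 had the same change, -2.68, against the same PBS samples. Oscillospiraceae_88309, Ruminococcaceae and Acutalibacteraceae were each called in 8 comparisons and Butyricicoccaceae in 2. Beside these, 355 tests were lower over all 95 genera in the 15 comparisons. In single comparisons 0% to 46.2% of all families were lower.

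Of the member genera left out of the tests because they were present in under 20% of samples, several are known butyrate producers or fibre degraders. Intestinimonas and Faecalibacterium each appeared in 1 of 89 day 4 samples, at 0.0772% and 0.0245%, both from antibiotic groups. Agathobaculum appeared in 4 (at most 0.020%), Ruminococcus_E in 4 (at most 0.0499%) and Angelakisella in 8 (at most 0.167%). Counted at an even depth of 1000 reads, PBS samples showed 9.62 ± 2.99 member taxa (SD, n = 16), oral vancomycin 0.167 ± 0.408 (n = 6), oral ampicillin 0.600 ± 0.894 (n = 5) and intravenous ampicillin 0 (n = 4). Oral metronidazole showed 8.33 ± 5.16 (n = 6) and intravenous neomycin 10.8 ± 4.35 (n = 4). Other groups lay between: oral neomycin samples showed 1, 5, 9 and 11 taxa. Intraperitoneal vancomycin samples showed 5.5 (a mean of 2 libraries), 8, 0, 8 and 6. The remaining groups are not listed.

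The same mice could be followed from day 0 where the day 0 library had at least 1000 reads. The sum was lower at day 4 in 3 of 3 mice with oral ampicillin, 4 of 4 with oral vancomycin, 3 of 3 with the oral mix, 4 of 4 with intravenous ampicillin and 5 of 5 with the intravenous mix. With intravenous vancomycin it was lower in 4 of 5, and into the peritoneum in 1 of 1 with ampicillin, 1 of 2 with vancomycin and 1 of 2 with the mix. With metronidazole it was lower in 3 of 5, 2 of 6 and 3 of 5 mice by mouth, peritoneum and vein, with neomycin in 1 of 2, 1 of 4 and 0 of 2, and with PBS in 2 of 3, 0 of 5 and 3 of 5. These tallies include 4 mice at 0% whose day 4 library was shallow: oral mix 2b (556 reads), peritoneal mix 3 (30 reads), intravenous mix 5 (65 reads) and peritoneal neomycin 4 (70 reads). The day 4 limits of the peritoneal mix mouse (10%) and the peritoneal neomycin mouse (4.29%) lie above their day 0 sums of 0.421% and 1.13%, and that of the intravenous mix mouse is 4.62% beside 5.12% at day 0. With at least 1000 reads on both days, the sum was lower in 2 of 2 with the oral mix, 0 of 1 with the peritoneal mix, 4 of 4 with the intravenous mix and 0 of 3 with peritoneal neomycin. The 4 oral vancomycin mice went from a median of 3.80% to 0%. All 5 peritoneal PBS mice were higher at day 4, with a median of 1.5% before and 2.34% after. Among Clostridia reads the members' share was 16.8% ± 6.64 (SD, n = 83) at day 0 and 30.3% ± 7.38 (n = 16) in PBS mice at day 4, with Lachnospiraceae at 15.7% ± 11.4 and 6.75% ± 5.43 of all reads; day 0 and day 4 libraries differ in depth, and this difference was not tested.

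**Figure D5:**
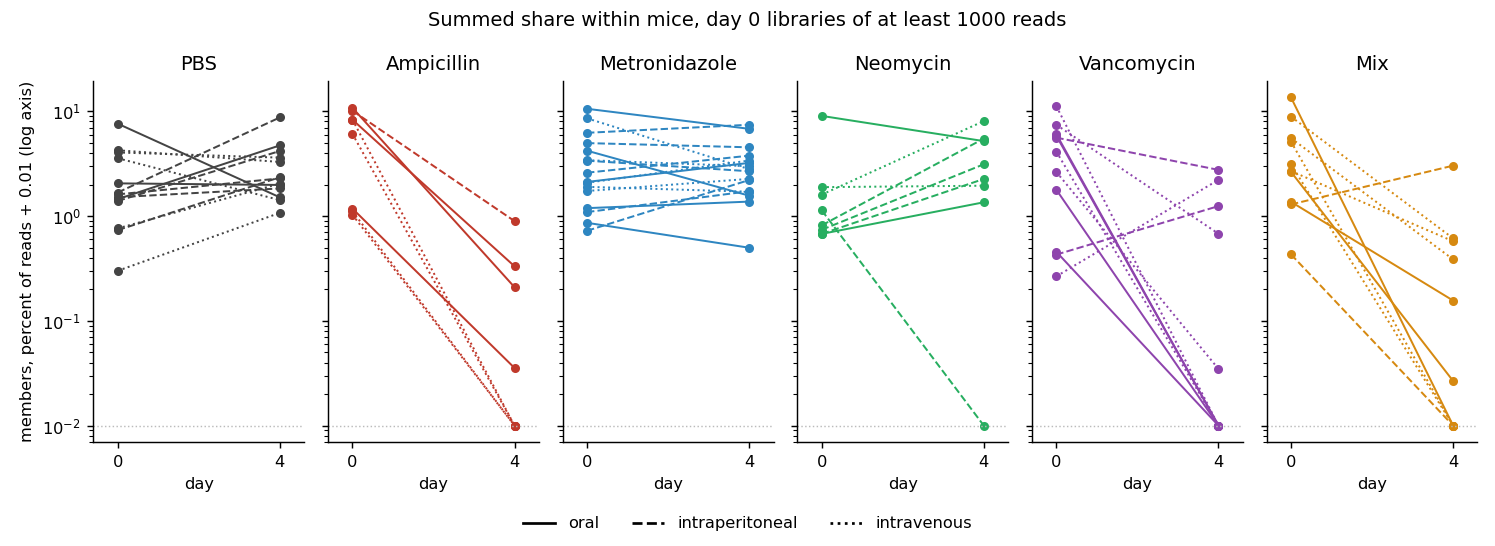
Summed share of the 4 families at day 0 and day 4 of the same mouse, as percent of reads plus 0.01 on a log axis, for mice with at least 1000 reads at day 0; line style gives the route. Every ampicillin line goes down, 3 of 3 by mouth, 1 of 1 into the peritoneum and 4 of 4 by vein; the neomycin line that drops to 0 ends in the library of 70 reads.

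In the main fit no member was called higher in any comparison, though other bacteria were. Without the filter on rare taxa, where 37 member genera of 279 were tested, 9 member genus tests were higher. On the centred scale 6 were, beside 117 over all genera, and with 0.1 added 1 was. In the main fit the share of all genera called higher by limma was 6.32% with ampicillin, 2.11% with metronidazole, 6.32% with neomycin, 7.37% with vancomycin and 1.05% with the mix by mouth. Into the peritoneum it was 7.37%, 2.11%, 0%, 3.16% and 0% in that order, and by vein 5.26%, 0%, 0%, 4.21% and 5.26%. At family level it was 15.4%, 0%, 7.69%, 17.9% and 5.13% by mouth, 17.9%, 0%, 0%, 5.13% and 0% into the peritoneum, and 7.69%, 0%, 0%, 5.13% and 12.8% by vein.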

How the data were processed

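V4 16S rRNA gene reads were amplified over 30 to 35 cycles and sequenced on a MiSeq, per the labels' protocols. The authors deposited a table of 488 taxa by 198 stool libraries whose signal is relative abundance scaled to 100000 per library; empty cells (11.6%) were read as 0, and the sources used here do not name a classifier or reference database. Samples were placed by the deposited sample sheets. Reads per library were recovered from the smallest step of each column. Values were turned into percent of reads and summed by genus and family. A pair of near-identical libraries in intraperitoneal vancomycin (1 and 5) and another in intravenous ampicillin (3 and 4), which agreed within sampling noise, were averaged and counted as 1 sample each, leaving 89.

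limma 3.58.1 (R 4.3.3) was fitted to log2(percent + 0.01) over all 18 day 4 groups (71 residual degrees of freedom, variance trend), with Benjamini-Hochberg adjustment over all genera or families tested in a comparison. The code was tested on simulated data. The reagent, skin and food list was matched at genus level, which departs from its planned wording. Described were the families in every comparison, the 3 member genera with the largest falls, and genera singled out after their values were seen. Members and lists were chosen with earlier results of these data known. Summed shares were not tested. P-values set a difference of group means against a spread between samples that is estimated over all 18 groups together. Cages were not given in the labels used. Alternatives covered the added percent, scaling, depth, run, rare taxa, day 0, replicate block and single samples left out.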

Additional observations from a re-analysis of the deposited data

Results flagged for a closer look

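Within groups of 4 to 10 samples, 20 single values in 69 group and measure pairs looked at lay far from the rest of their group by Dixon's test, which chance alone does for about 1 in 20 groups. In 12 of the 20 every other sample of the group was at 0, so that any value above 0 stands apart and the 1 in 20 does not apply. For the summed share these were oral vancomycin sample 2 at 0.0445% and intravenous ampicillin sample 3 at 0.0111%, both the lone samples above 0. The others were intraperitoneal neomycin sample 4 at 0% (70 reads), intraperitoneal vancomycin sample 3 at 0% and intravenous neomycin sample 4 at 8.06%. Oscillospiraceae_88309, which is part of the sum, stood apart in the same 5 samples and repeats them, at 0.0445%, 0.0111%, 0%, 0% and 6.79%.

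For Acutalibacteraceae the values were 0% in intraperitoneal PBS sample 3, 0.0903% in oral mix sample 3, 0.0327% in intraperitoneal vancomycin sample 6 and 0.0768% in intravenous mix sample 4. For Butyricicoccaceae they were 0.0236% in oral mix sample 3, 0.00706% in intravenous metronidazole sample 5 and 0.0277% in intravenous neomycin sample 4, each the only sample of its group above 0. For Ruminococcaceae they were 0% in intravenous PBS sample 6, 0.0602% in oral mix sample 3 and 0.292% in intravenous vancomycin sample 3. Oral mix sample 3 thus appears for 3 families; it came from run SB1.

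Routes differed by test (limma) in 5 places. Oral minus intravenous neomycin gave -3.98 for Enterenecus, -2.69 for Limivicinus, -3.57 for Anaerotruncus and -3.87 for Ruminococcus_C_59129 on the log2 scale, and oral minus intraperitoneal vancomycin gave -5.00 for Oscillospiraceae_88309.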

How the results depend on the processing

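Of 108 calls (82 genus, 26 family), 108 were kept with near-identical libraries apart and 108 without a variance trend, 104 with 0.001 added, 97 without the filter on rare taxa, 82 with 0.1 added, 80 with only the groups compared in the fit, 72 in run ok122 alone, 56 as change from day 0 and 50 on the centred log-ratio scale. With the replicate block, 84 genus and 26 family tests were called and 1 of the 108 calls was lost; the numbers name mice within a group and do not pair them. The planned count model was not run: 90 of 91 day 4 libraries list fewer than 100 low values, the minimum used for taking scaled values as whole reads. The causes of the changes below were not tested. Except on the centred scale, counts of member genera below are given without a count over all genera. On the centred scale the sums were -2.98 (oral ampicillin), -5.47 (oral vancomycin) and -5.90 (intravenous ampicillin). Member genera lower there were 3, 2, 4 and 0 of 14 for oral ampicillin, neomycin, vancomycin and mix. Over all 95 genera 13, 8, 23 and 3 were lower. For intraperitoneal ampicillin, vancomycin and mix they were 3, 0 and 0, beside 9, 5 and 6 over all. For intravenous ampicillin, vancomycin and mix they were 5, 5 and 4, beside 15, 18 and 21. In each oral and intravenous comparison of ampicillin, vancomycin and the mix 1 member was higher. Over all genera 13, 22 and 2 were higher by mouth and 13, 12 and 19 by vein on that scale. Reversed there were Butyricicoccus_A_77030 in oral ampicillin (0.23) and vancomycin (0.59), Acutalibacter in oral vancomycin (0.55), Limivicinus in intravenous ampicillin (0.033) and Ruminococcus_C_58660 in intraperitoneal ampicillin (0.17) and intravenous ampicillin (0.47), vancomycin (0.19) and mix (0.24). Thinned to 1000 reads, with 8 member genera of 59 tested, the oral ampicillin sum was -6.62 and genera lower were 5, 0, 0, 6 and 3 for the oral groups in the order ampicillin, metronidazole, neomycin, vancomycin, mix, 4, 0 and 0 for intraperitoneal ampicillin, vancomycin and mix, and 5 and 5 for intravenous ampicillin and vancomycin. With presence in 50% of samples 6 member genera of 44 were tested and 69 calls were kept with 0 lost; genera lower were 6, 0, 2, 6 and 6 for the oral groups, 0 and 5 for intraperitoneal vancomycin and mix and 5 for intravenous vancomycin. As change from day 0 the sums were -2.40, -2.60, -9.60 and -8.82 for oral metronidazole, neomycin, vancomycin and mix, and -0.85, 1.48 and -1.68 for intraperitoneal metronidazole, vancomycin and mix; genera lower were 7 and 2 for oral ampicillin and neomycin, 2, 0 and 1 for intraperitoneal ampicillin, vancomycin and mix, and 3 and 5 for intravenous ampicillin and vancomycin. Day 0 libraries of any depth entered there, the lowest with 2 reads. Another setting, chosen after seeing the data, kept only day 0 libraries of at least 1000 reads. Its sums were -0.18, 0.33 and -7.63 for oral metronidazole, neomycin and vancomycin, and the oral mix stayed lower. Into the peritoneum they were -0.85, -2.31 and -3.39 for metronidazole, vancomycin and mix. By vein they were -8.83 for ampicillin and -0.45 for metronidazole. The positive sum of intraperitoneal vancomycin was thus not seen in that setting. Sums of oral vancomycin and intravenous ampicillin were -10.48 and -10.25 with 0.001 added and -4.73 and -4.54 with 0.1, where genera lower were 6 (oral mix), 3 (intraperitoneal mix) and 5 (intravenous ampicillin), with 1 higher in intraperitoneal metronidazole. Without the filter on rare taxa genera higher were 2, 1 and 1 (oral ampicillin, neomycin, mix), 1 (intraperitoneal ampicillin), and 3 and 1 (intravenous neomycin, mix). Without the reagent, skin and food list the oral ampicillin sum was -3.34 and 5 genera were lower in the oral mix; without libraries under 1000 reads, 6 in the oral and 2 in the intraperitoneal mix. In run ok122 alone the sums were -7.37 (oral mix) and -1.86 (intraperitoneal ampicillin), and 2, 0 and 2 genera were lower in intraperitoneal ampicillin, intraperitoneal mix and intravenous vancomycin. With only the groups compared, 1 and 0 were lower in intraperitoneal vancomycin and mix. Leaving out single samples, genera lower ran from 2 to 5 (oral neomycin), 5 to 12 (oral mix), 3 to 10, 0 to 1, 2 to 5 and 0 to 9 (intraperitoneal ampicillin, metronidazole, vancomycin, mix) and 7 to 11 (intravenous mix); genera higher from 0 to 1 in intraperitoneal metronidazole, intravenous metronidazole and intravenous neomycin; and the intraperitoneal ampicillin sum from -7.24 to -1.86. Groups of 2 to 6 samples, 4 day 4 libraries under 1000 reads and shallow day 0 libraries limit precision.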
